A study of Mus musculus with 18 samples.

Results

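The liver genes described here are 10 regulators and enzymes of fatty acid synthesis and desaturation: Srebf1, Mlxipl, Thrsp, Acly, Me1, Acaca, Acacb, Fasn, Scd1 and Scd2. They were taken by symbol from the gene names of the array files, which gave 17 probes of 39429 non-control probes, and 10 genes of 31709 named genes and unnamed targets. RNA came from the liver of 18 male C57BL/6J mice, 8 given a high-fat diet with linseed oil (the LIN diet) and 10 given one with palm oil (the PALM diet). The feeding lasted 5 weeks, began at 8 weeks of age and ended at 13 weeks of age. Each diet carried 51.1% of its energy as lipid, 32.1% as carbohydrate and 16.7% as protein, so no group ate a low-fat diet. Linseed oil was the polyunsaturated one, with 66.7% PUFA (49.7% alpha-linolenic acid), 22.5% MUFA and 9.7% SFA, while palm oil held 8.8% PUFA, 34.8% MUFA and 55.6% SFA. The hour of killing and the time since the last meal are not given in the sources used here.

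Fatty acid synthesis in the liver starts from citrate, which ATP citrate lyase (Acly) splits to give cytosolic acetyl-CoA. The acetyl-CoA carboxylases (Acaca, Acacb) make malonyl-CoA from it, fatty acid synthase (Fasn) joins these units into palmitate with NADPH that malic enzyme (Me1) helps to supply, and stearoyl-CoA desaturases (Scd1, Scd2) add a double bond. Insulin and feeding raise these genes through SREBP-1c, from Srebf1, and glucose raises them through ChREBP, from Mlxipl. Dietary polyunsaturated fatty acids are known to lower many of them in rodent liver. Thrsp (Spot 14) is a small protein that goes up with lipogenesis, and its transcript is widely read as a marker of it.

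Stretches of promoter are shown for the pair of members that varied together most closely across mice, Fasn and Acly, and for Mlxipl, whose level ran opposite to that of Srebf1. Each is the run of 250 bases before a RefSeq start site in assembly GRCm38.p6, written 5′ to 3′ on the strand of the gene. Capitals mark, on either strand, the letters of the CCAAT box (CCAAT), the GC box (GGGCGG), the E-box (CACGTG) and the sterol regulatory element, or SRE (TCACNCCAC). The Fasn stretch lies at chr11:120824548-120824797 on the minus strand, the Acly stretch at chr11:100528001-100528250 on the minus strand, and the Mlxipl stretches at chr5:135106641-135106890 (start site 1) and chr5:135089640-135089889 (start site 2), both on the plus strand.
Fasn: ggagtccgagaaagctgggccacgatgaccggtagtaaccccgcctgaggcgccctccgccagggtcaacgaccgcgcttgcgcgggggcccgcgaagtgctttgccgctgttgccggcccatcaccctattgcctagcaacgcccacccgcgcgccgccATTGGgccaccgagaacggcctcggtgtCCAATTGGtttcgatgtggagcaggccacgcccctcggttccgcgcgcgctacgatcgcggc
Acly: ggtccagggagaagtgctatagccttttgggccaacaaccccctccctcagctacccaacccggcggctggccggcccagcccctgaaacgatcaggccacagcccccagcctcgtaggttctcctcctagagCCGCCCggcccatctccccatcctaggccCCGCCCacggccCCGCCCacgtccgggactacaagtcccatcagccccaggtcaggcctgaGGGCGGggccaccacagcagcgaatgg
Mlxipl, start site 1: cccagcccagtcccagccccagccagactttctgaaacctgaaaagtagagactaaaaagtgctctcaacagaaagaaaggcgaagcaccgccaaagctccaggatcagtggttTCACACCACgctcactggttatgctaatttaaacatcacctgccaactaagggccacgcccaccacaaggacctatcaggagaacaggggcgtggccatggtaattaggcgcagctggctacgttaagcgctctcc
Mlxipl, start site 2: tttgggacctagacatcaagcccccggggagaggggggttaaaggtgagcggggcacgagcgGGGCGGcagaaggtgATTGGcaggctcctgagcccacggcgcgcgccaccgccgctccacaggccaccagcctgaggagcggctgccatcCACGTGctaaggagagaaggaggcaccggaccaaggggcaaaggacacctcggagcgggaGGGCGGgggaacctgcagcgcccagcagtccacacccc

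In the Fasn stretch there are 3 CCAAT matches, at -90, -62 and -59 bases from the start site, of which the last pair share bases. The Acly stretch holds 4 GC boxes, at -117, -88, -76 and -27. The Mlxipl stretches hold the single SRE match among members, at -136 from start site 1, and the single E-box among members, at -98 from start site 2. RefSeq windows of 300 bases (250 before and 50 after the start) were found for 8 of the 10 members. CCAAT occurred in the windows of 7 of these 8 genes, against 41.1% of 27025 genes. A GC box occurred in 4 of the 8, against 38.2%. The E-box was found in 1 of 8 and in 8.09% of all genes, the SRE in 1 of 8 and in 1.44%, and TATAAA in 1 of 8 (Acacb) and in 15.7%. Neither a pair of E-boxes 5 bases apart (0 of all genes) nor an exact DR4 repeat of the kind bound by LXR (0.0148% of all genes) was found in a member. A match describes the letters only.

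Gene levels below are log2 of the processed spot signal minus the 75th percentile of the same array, so 0 is the 75th percentile and a difference of 1 is a 2-fold change. Levels of different probes are not set against each other. On the 18 arrays that percentile was 117 to 204 intensity units, and 17258 to 22445 probes were well above background. The imaging software marked 238 to 1703 spots per array as non-uniform or outlying, mostly bright ones. Scd1 was marked on 5 linseed and 3 palm arrays and Mlxipl on 6 linseed and 7 palm arrays, so both have values for all mice only with marked spots kept. Member values therefore keep marked spots, and differences without them are given for the other 8 genes. All 8 hepatocyte markers checked were well above background on all 18 arrays. Fewer cells of a type and less RNA per cell cannot be told apart in such bulk samples.

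No member passed the test between the diets, and Scd1 came nearest. With marked spots left out, limma called 121 of 15951 genes (0.759%) at an adjusted p under 0.05, and 0 of the 8 members it could test. With marked spots kept it called 149 of 16544 genes (0.901%), and 0 of 10 members. At an unadjusted p under 0.05, 2 members (Scd1 and Mlxipl) stood among 1754 genes (10.6% of those tested). The median member difference, linseed minus palm, was -0.25 with 7 of 10 below 0, while the median over all genes was -0.0017 with 50.6% below 0. The diet-difference plot shows that of the 10 intervals those of Scd1 and Mlxipl excluded 0.

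**Figure D1:**
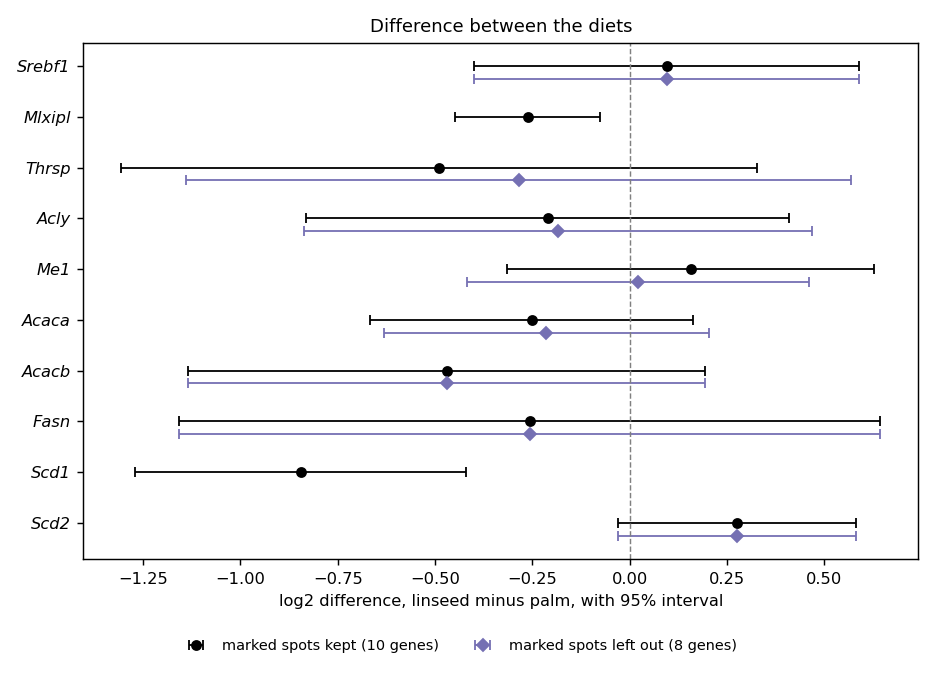
Difference between the diets for each member on the log2 scale (x axis, linseed minus palm), with the 95% interval of the limma fit. Black circles keep spots marked by the imaging software (10 genes) and violet diamonds leave them out (8 genes). For Acaca the circle is probe A_55_P2019058, marked on 6 palm arrays, and the diamond is another probe, A_55_P2084706. The Scd1 interval lies between -1.27 and -0.42 and that of Fasn between -1.16 and 0.65.

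Scd1 makes oleate and palmitoleate from saturated fatty acids. Its probe (A_52_P682382, chr19:44469387-44469446 on the minus strand, mm9) read 5.87 at the lowest, 6.34 at the median and 7.53 at the highest among linseed mice, against 6.58, 7.28 and 7.69 among palm mice. Of the 8 linseed mice, 7 lay below the lowest palm mouse, and the exception was linseed mouse 8. Means were 6.38 ± 0.52 in linseed mice (SD, n = 8) and 7.23 ± 0.40 in palm mice (SD, n = 10). The difference was -0.84 ± 0.20 (SE), or 1.80-fold lower on linseed, with a limma adjusted p of 0.0552 over all genes. Without linseed mouse 8 the difference was -1.01 and passed (adjusted p = 0.00434), and it also passed without palm mouse 8 (-0.90, 0.0459) or palm mouse 10 (-0.92, 0.0414). Leaving out any of the other 15 mice left it short of the threshold.

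Arrays fell on 5 slides, each with both diets. Marked spots numbered 1283 to 1703 on the arrays of slides 4 and 5, and 238 to 682 on those of slides 1 to 3. Leaving marked spots out thus takes more values from slides 4 and 5. For 3 arrays (linseed mouse 5, palm mice 5 and 6) the headers give no slide barcode, and these were taken as slide 1 because they were scanned together. The Scd1 difference was -1.08, -1.52, -0.96 and -0.65 on slides 1 to 4 and 0.62 on slide 5. The linseed animal of slide 5 was mouse 8. With slide as a random block the difference was -0.82 (limma adjusted p = 0.0395), and as a fixed block it gave -0.79 (0.0975). With each mouse's Fasn level as a covariate, a setting added after the values were seen, it was -0.76 ± 0.14 (SE; adjusted p = 0.0150), where 155 of 16543 genes passed (0.937%). In the plot of Scd1 on Fasn the 7 linseed mice other than mouse 8 lie below palm mice of similar Fasn level.

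**Figure D2:**
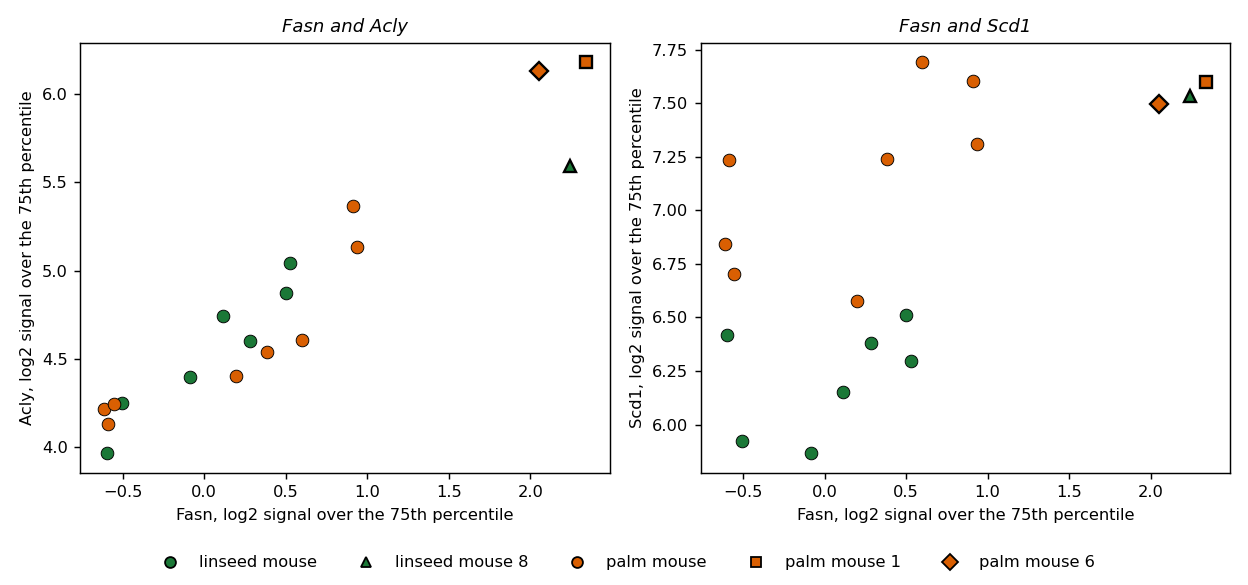
Acly (left) and Scd1 (right) on the y axes against Fasn on the x axes, 1 point per mouse, all as log2 signal over the 75th percentile of the array. Green points are the 8 linseed mice (triangle: mouse 8) and orange points the 10 palm mice (square: mouse 1, diamond: mouse 6). Acly follows Fasn in both diets, while 7 linseed mice lie below all palm mice in Scd1.

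Scd2, the desaturase more abundant in brain than in adult mouse liver, did not share the direction of Scd1. Its probe (A_51_P129464, chr19:44381024-44381083 on the plus strand) read -1.98, -0.91 and -0.51 (lowest, median and highest) in linseed mice, against -1.56, -1.25 and -0.95 in palm mice. The groups overlapped, and 7 of 8 linseed mice were above the palm median. The difference was 0.28 ± 0.15 (SE) and did not pass (limma adjusted p = 0.533). Linseed mouse 5 was the lowest of all 18 and the slide-1 difference that holds it was -0.85, against 0.28 to 0.60 on the other slides. Without that mouse the difference was 0.42 and still did not pass (limma adjusted p = 0.0619).

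Among the regulators, Srebf1 (probe A_55_P2002557, chr11:60012664-60012723 on the minus strand) read 0.32, 0.69 and 1.19 in linseed mice, against -0.15, 0.55 and 1.46 in palm mice. All linseed values fell inside the palm range, and the difference was 0.10 ± 0.24 (SE; limma adjusted p = 0.934). SREBP-1 is made as a membrane-bound precursor and works after cleavage, which an array does not read. Mlxipl (probe A_55_P2119957, chr5:135613705-135613764 on the plus strand) read 4.65, 4.91 and 5.30 in linseed mice, against 5.01, 5.18 and 5.45 in palm mice. Of the linseed mice, 5 of 8 lay below the lowest palm mouse and 7 of 8 below the palm median. The difference was -0.26 ± 0.089 (SE) with an unadjusted p of 0.00852 and a limma adjusted p of 0.250. It was below 0 on slides 1, 3, 4 and 5 (-0.43 to -0.29) and 0.03 on slide 2.

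Thrsp (probe A_55_P2018666, chr7:104561649-104561708 on the minus strand) spanned 10.6-fold in linseed mice, at 3.68, 6.04 and 7.08, against 5.44-fold in palm mice, at 4.84, 6.12 and 7.28. The groups overlapped almost wholly, with linseed mouse 2 below all others. The difference was -0.49 ± 0.39 (SE; limma adjusted p = 0.720), and -0.29 ± 0.40 with marked spots left out. Without linseed mouse 2, and with marked spots left out, it was 0.01.

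Neither of the enzymes that feed the pathway with acetyl-CoA and NADPH passed between the diets. Acly (probe A_55_P2025954, chr11:100337674-100337733 on the minus strand) read 3.97, 4.67 and 5.59 in linseed mice, against 4.13, 4.57 and 6.18 in palm mice. Its difference was -0.21 ± 0.30 (SE; limma adjusted p = 0.866), and that of its dimmer probe was -0.05 ± 0.31. Me1 (probe A_55_P2016842, chr9:86480571-86480630 on the minus strand) read 3.93, 4.33 and 5.34 in linseed mice, against 3.52, 4.29 and 4.97 in palm mice. The Me1 difference was 0.16 ± 0.22 (SE; limma adjusted p = 0.870), and 0.02 with marked spots left out, where linseed mouse 8 dropped from the fit. Its other probes gave 0.27 and 0.32, neither of which passed.

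Both carboxylases had lower means in linseed mice, and neither passed. Acaca, whose product feeds synthesis in the cytosol (probe A_55_P2019058, chr11:84215093-84215152 on the plus strand), read 3.21, 3.70 and 4.58 in linseed mice, against 3.40, 4.01 and 4.62 in palm mice. Its difference was -0.25 ± 0.20 (SE; limma adjusted p = 0.718), and its other 3 probes gave -0.18, -0.07 and -0.01. Acacb, whose malonyl-CoA also restrains fatty acid entry into mitochondria (probe A_55_P2019054, chr5:114700702-114700761 on the plus strand), read 2.47, 2.99 and 4.38 in linseed mice, against 2.30, 3.68 and 4.59 in palm mice. The Acacb difference was -0.47 ± 0.32 (SE; limma adjusted p = 0.648), and its second probe gave -0.36 ± 0.33.

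Fasn (probe A_52_P100252, chr11:120667666-120667725 on the minus strand) had the widest pooled spread of the members. It read -0.60, 0.20 and 2.24 in linseed mice, a 7.17-fold range, against -0.61, 0.49 and 2.34 in palm mice, a 7.75-fold range. Both diets thus ran over nearly the same values. The mean was 0.31 ± 0.89 in linseed mice (SD, n = 8) and 0.57 ± 1.04 in palm mice (SD, n = 10). The difference was -0.26 ± 0.43 (SE) with a 95% interval of -1.16 to 0.65 and a limma adjusted p of 0.890.

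**Figure D3:**
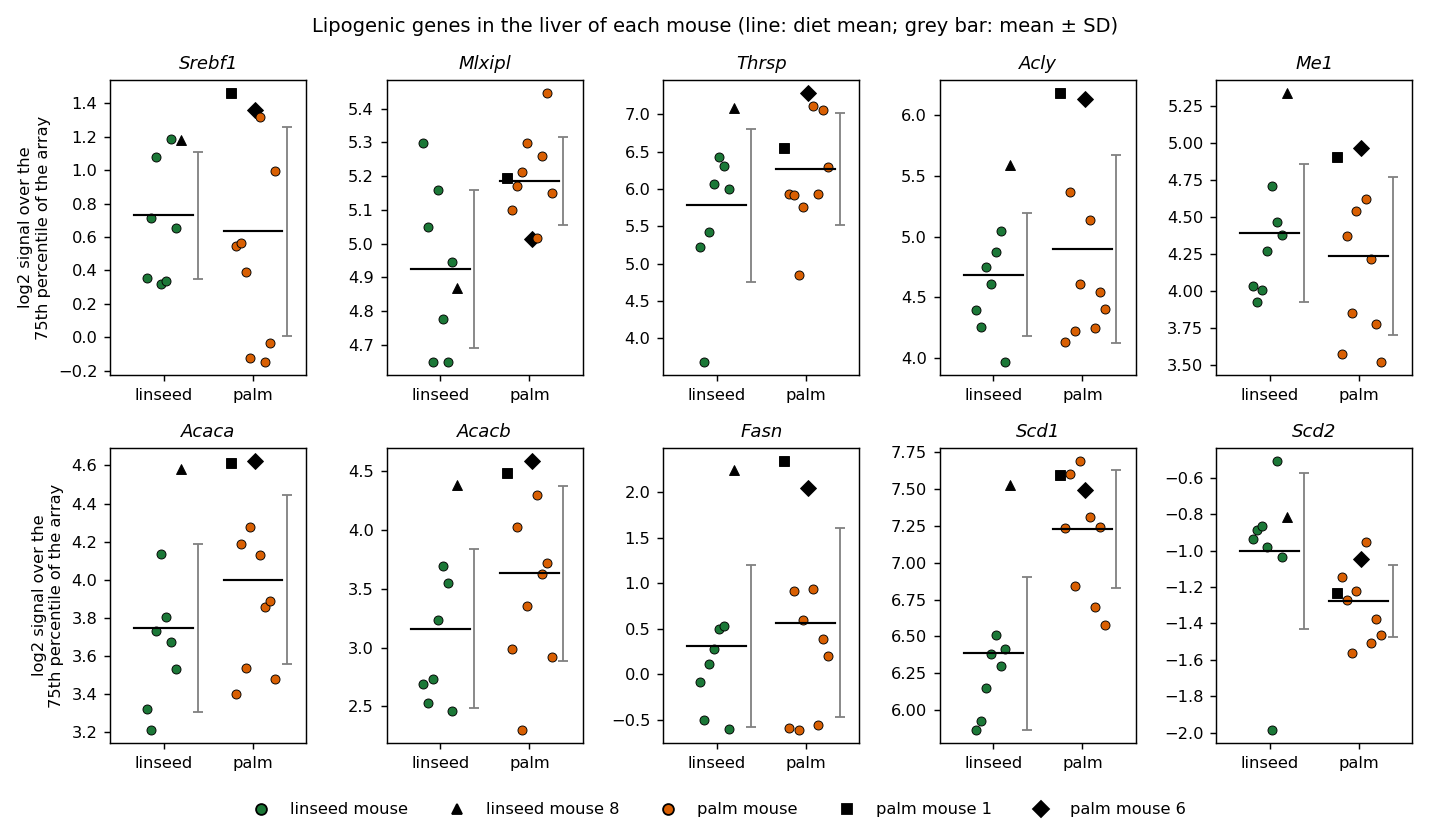
Level of each member (y axes, log2 signal over the 75th percentile of the array) in each of 8 linseed mice (left, green) and 10 palm mice (right, orange). Each point is 1 mouse, lines are diet means and grey bars show the mean ± SD, and black symbols follow linseed mouse 8 and palm mice 1 and 6. These 3 mice have the highest Fasn values of all 18.

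The spread between mice of one diet, with slides not separated, was wide for most of these genes. Pooled over both diets, the within-diet SD of Fasn was 0.98 log2 units, larger than in 99.0% of 16544 genes, whose median SD was 0.24. Thrsp had 0.88 (larger than in 98.3% of genes), Acacb 0.72 (96.4%), Acly 0.67 (95.3%) and Srebf1 0.53 (89.6%). Me1 had 0.50 (88.0%), Scd1 0.45 (84.4%) and Acaca 0.44 (83.3%), while Scd2 had 0.32 (67.6%). Mlxipl stood at the other end with 0.18, larger than in 31.7% of genes. These percentiles describe the arrays, and no test was made on them. Differences between slides, where present, are part of these SDs. The slide share of the within-diet variance was 0.41 for Thrsp, 0.24 for Me1, and 0.034 (Srebf1) to 0.18 (Acaca) for the other members. With so few arrays per slide, slide takes a sizeable share of any gene's variance even where slides do not differ. These shares are not adjusted for that, so a share alone does not show a slide effect. With diet means removed, the largest single pattern in the values held 0.26 of their variance, and slide explained 0.94 of that pattern. How much of the spread came from slides was not tested. Set against 1654 or 1655 genes of like brightness, Fasn was wider than 99.5%, Scd1 than 93.7% and Mlxipl than 52.0%.

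**Figure D4:**
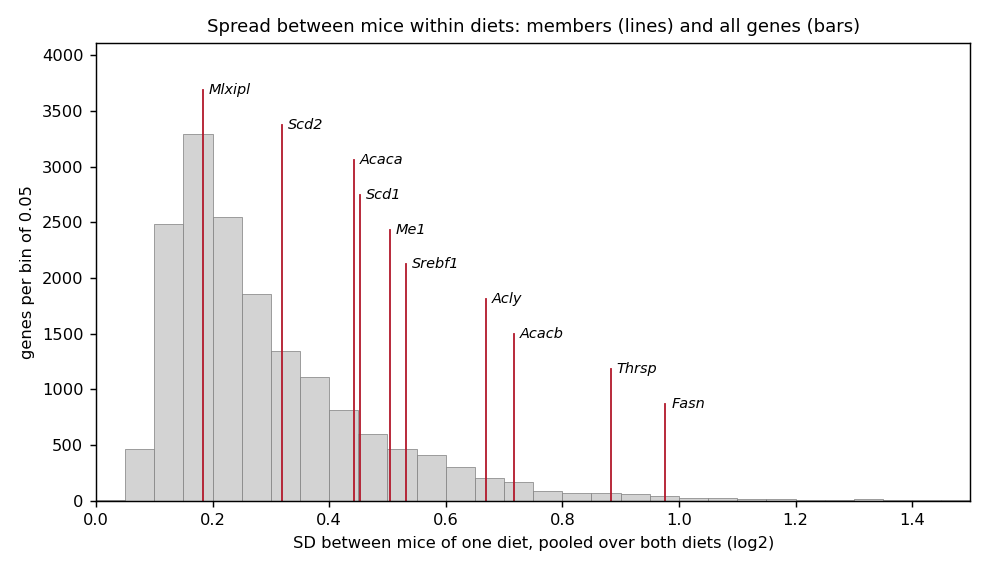
Number of genes (y axis, bars) by the SD between mice of one diet, pooled over both diets (x axis, log2 units, bins of 0.05, drawn up to 1.5), for 16544 genes. Red lines place the 10 members, from Mlxipl at 0.18 to Fasn at 0.98, and their heights carry no value.

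Whether the diets differed in this spread was tested with limma on absolute deviations from the diet mean. None of the 10 members passed (limma adjusted p of 0.806 or more), and 1 of 16544 genes did (0.00604%), with 1030 at an unadjusted p under 0.05. SDs were 0.89 in linseed mice and 1.04 in palm mice for Fasn, 0.52 and 0.40 for Scd1, 0.38 and 0.62 for Srebf1, and 0.43 and 0.20 for Scd2. In simulated data of the same size this test called 7% of genes given a 4 times larger SD, so a difference in spread could easily be missed.

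The same animals were high or low in many members at once. Linseed mouse 8 was above its diet mean in 9 of 10 members, by 0.89 on average, with Mlxipl the exception. Palm mouse 1 was above in 10 of 10, by 0.67, and palm mouse 6 in 9 of 10, by 0.71. At the other end, palm mouse 4 was above in 1 of 10, at -0.63 on average, and linseed mouse 2 in 2 of 10, at -0.52. The animals named came from both diets and from slides 1, 2, 3 and 5. Slide 4 held high and low animals too. Palm mouse 7 was above in 9 of 10, by 0.35 on average, and palm mouse 8 in 1 of 10, at -0.37.

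Across the 18 mice, with diet means removed, 36 of the 45 pairs of members had a Pearson r above 0 and the median r was 0.56. By permutation within diets, 24 pairs passed at an adjusted p under 0.05 for r, and 22 of these also by Spearman's rho. The share of all gene pairs that would pass was not computed. Ranked by r with Fasn among all genes, Acly was number 2, Acaca 10, Acacb 17, Me1 40, Scd1 110, Thrsp 255 and Srebf1 367. Ranked by r with Srebf1, Acly was number 199, Fasn 384 and Scd2 1014. Many genes outside the members thus lay nearer in several passing pairs. All 10 pairs among Acly, Me1, Acaca, Acacb and Fasn passed, with r from 0.81 to 0.96. The closest pair was Fasn and Acly, with r = 0.956 and rho = 0.940 (permutation p = 1e-05 for each, the smallest that 100000 permutations can give, and adjusted p = 0.00015), and r = 0.949 without the 2 mice farthest from the Fasn median. Scd1 went with each of these 5 enzymes (r from 0.64 to 0.81), most closely with Acaca (r = 0.815, rho = 0.761, permutation adjusted p = 0.000495 and 0.00262, and r = 0.825 without the 2 mice farthest from the Acaca median). Thrsp also went with the 5 (r from 0.56 to 0.76, 4 of them by rho too).

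Fewer pairs passed without the 3 mice of highest Fasn. Leaving mice out by their Fasn level narrows its range and leaves fewer mice, which can lower r and the count of pairs. A fall therefore does not show that the pairs rested on these mice. Between palm mouse 6 (Fasn 2.05) and the next mouse (0.93) there was a gap, so the pairs were taken again over the other 15 mice, a choice made after the values were seen. There 10 of 45 pairs passed, and r among the 5 enzymes ran from 0.58 to 0.91. Fasn and Acly kept r = 0.914 (permutation adjusted p = 0.00045), Acaca and Scd1 r = 0.712 (0.0339), and Fasn and Scd1 r = 0.576, which did not pass. Fasn and Scd1 had r = 0.751 and rho = 0.728 over 18 mice (permutation adjusted p = 0.0032 and 0.0048), r = 0.588 without the 2 mice farthest from the Fasn median, and 0.878 and 0.673 within linseed and palm mice.

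**Figure D5:**
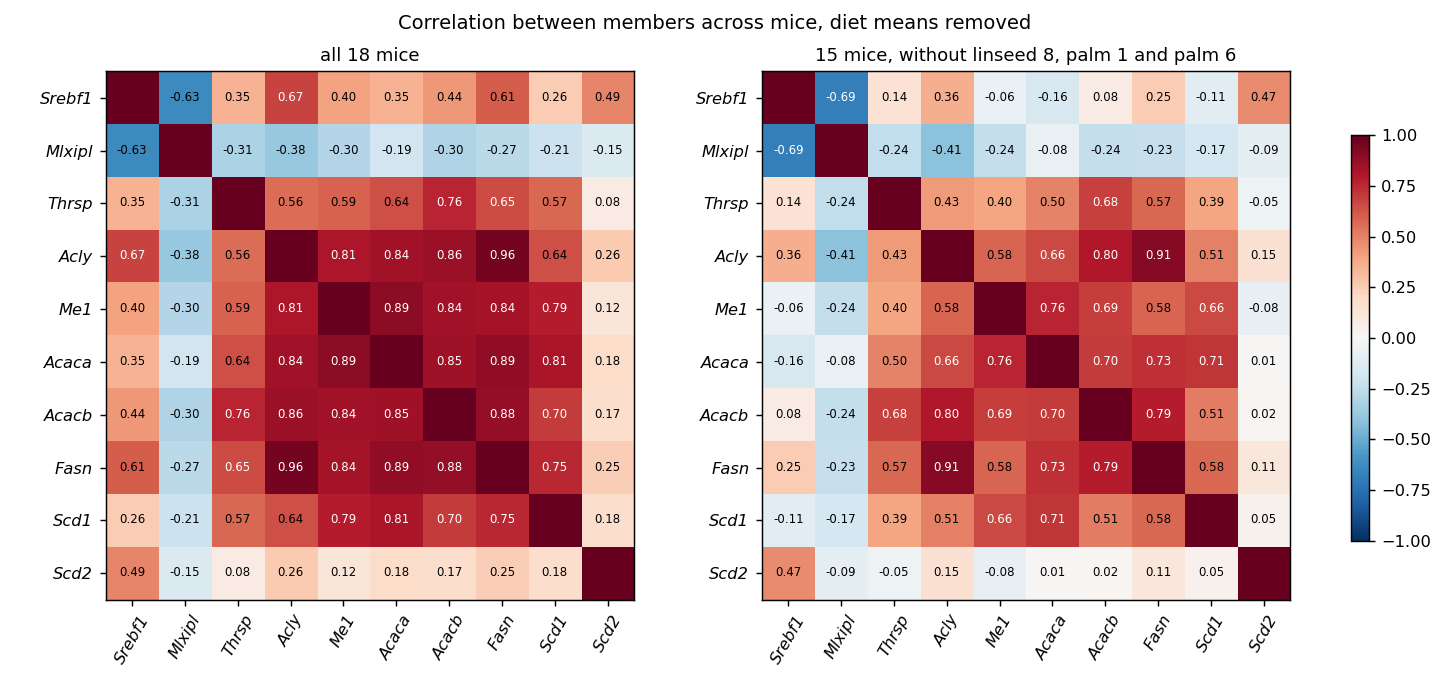
Pearson correlation between members across mice after diet means were removed (colour scale from -1 to 1, values printed), over all 18 mice (left) and over 15 mice without linseed mouse 8 and palm mice 1 and 6 (right). The block from Acly to Scd1 is positive in both panels, Mlxipl is negative with all other members (7 of these signs turn under normexp background correction), and Srebf1 loses most of its correlation with the enzymes in the right panel.

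Of the regulators, Srebf1 passed with Acly (r = 0.672, rho = 0.589, permutation adjusted p = 0.0134 and 0.0411, r = 0.557 without the 2 mice farthest from the Srebf1 median) and, by r alone, with Fasn (r = 0.609, rho = 0.556, permutation adjusted p = 0.0229 and 0.0532, r = 0.459 likewise). With Scd1 its r was 0.256 (permutation adjusted p = 0.352). Over the 15 mice the r of Srebf1 with the 5 enzymes was -0.16 to 0.36 and none passed. Mlxipl ran opposite to Srebf1 (r = -0.635, rho = -0.647, permutation adjusted p = 0.00348 and 0.00846, r = -0.717 without the 2 mice farthest from the Srebf1 median), also over the 15 mice (r = -0.686, adjusted p = 0.0187), but r was -0.333 with normexp background correction. Mlxipl correlated below 0 with the other 8 members (r from -0.38 to -0.15), none of which passed, and under normexp the sign turned for 7 of these 8.

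Over all 18 mice, the r of Scd2 with the 5 enzymes, Scd1 and Thrsp was 0.08 to 0.26, and none of these 7 pairs passed. Within linseed mice these r were -0.17 to 0.08, and within palm mice all 7 were above 0, at 0.53 to 0.68. The difference between the diets in r was not tested. With Srebf1 it passed (r = 0.489, rho = 0.612, permutation adjusted p = 0.0207 and 0.0210, r = 0.493 without the 2 mice farthest from the Srebf1 median). Linseed mouse 5, low in Scd2 but not in the other enzymes, is in all these values.

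Genes that report feeding and time of day were set beside Fasn, Scd1 and Srebf1, 24 pairs in all, of which 3 passed. Insig1, an SREBP target that holds SREBP in the endoplasmic reticulum, went with Fasn (r = 0.781, rho = 0.831, permutation adjusted p = 0.00456 and 0.0036, r = 0.776 without the 2 mice farthest from the Fasn median). Dbp, an output gene of the circadian clock, went with Fasn (r = 0.663, rho = 0.707, permutation adjusted p = 0.0334 and 0.0227, r = 0.628 without the 2 farthest mice) and with Srebf1 (r = 0.689, rho = 0.703, permutation adjusted p = 0.0210 and 0.0227, r = 0.567 likewise). Over the 15 mice r was 0.782, 0.624 and 0.590 for these pairs and 0 of 24 passed. Igfbp1 and Pck1, which insulin lowers, had r of -0.02 and -0.04 with Fasn. Another gene that insulin lowers had r of -0.35 with Fasn and -0.37 with Scd1. Of the other clock genes, Per1 had r of 0.31 with Fasn and -0.12 with Srebf1, and Nr1d1 had 0.16 and 0.38. None of these pairs passed with diet means alone removed. With slide means removed too, Nr1d1 had r of 0.52 with Fasn and 0.72 with Srebf1, and Per1 had 0.35 and -0.11. In that version 5 of the 24 pairs passed. The part of the feeding and clock genes in the spread was not tested.

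By likeness across mice among all genes tested, the 5 genes nearest to Fasn were Acss2 (r = 0.972), Acly (0.956), Lpcat3 (0.928), Tlcd1 (0.913) and Gpam (0.905). Acss2 makes acetyl-CoA from acetate, Lpcat3 is a phospholipid acyltransferase and Gpam starts glycerolipid synthesis. Nearest to Scd1 were Scd3 (0.927), Pnpla3 (0.835), Gpi1 (0.834), Acaca (0.815) and Csl (0.797). Scd3 is a close paralog of Scd1, and whether the probes read each other's transcripts was not tested. Nearest to Srebf1 were Nqo2 (0.902), Inmt (0.878), Cyp2a21-ps (0.853), Cyp2a4 (0.837) and Sucnr1 (0.835), none of them a member.

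Other genes of the pathway, in 10 lists, held no gene that passed between the diets, with marked spots kept. The member of smallest p in each list is given with its difference. Scd3 had -0.79 ± 0.29 (SE; limma adjusted p = 0.307), the same direction as Scd1, among 4 of 5 desaturase relatives tested. Txnip, a ChREBP target, had 0.45 ± 0.14 (0.189), among 9 SREBP-1 and ChREBP targets with a median of -0.0092. Pnpla3, a lipid droplet protein of the same list named above for its likeness to Scd1, had -1.49 ± 0.60 (0.354). Its mean levels were low, at -4.53 in linseed mice and -3.04 in palm mice, so background can limit this difference and its r with Scd1. Pklr, the liver pyruvate kinase and a ChREBP target, had -0.55 ± 0.21 (0.324), among 7 genes of glycolytic entry with a median of -0.098. G6pdx, the first enzyme of the pentose phosphate path, had -0.61 ± 0.25 (0.360), among 7 genes of NADPH supply with a median of 0.013. Hsd17b12, a reductase of fatty acid elongation, had 0.35 ± 0.086 (0.0622), among 8 elongation genes with a median of 0.057.

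In the list of citrate supply Mpc2, a subunit of the mitochondrial pyruvate carrier, had 0.15 ± 0.052 (SE; limma adjusted p = 0.287). Insig2, which holds SREBP in the endoplasmic reticulum as Insig1 does, had 0.25 ± 0.14 (0.550), and Usf1, an E-box factor, 0.24 ± 0.14 (0.600). Prkab2, a subunit of AMP-activated kinase, had -0.40 ± 0.18 (0.425). In the insulin list Igfbp1 had -0.28 ± 0.26 (0.778). Medians of the 10 lists ran from -0.13 (desaturase relatives, 4 genes) to 0.088 (citrate supply and acetyl-CoA, 9 genes), beside -0.0017 over all genes.

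Adipose tissue also expresses these genes. Among 8 adipocyte markers, Cfd, Fabp4, Plin4 and Car3 were above background on all 18 arrays, Adipoq, Plin1 and Retn on 3 or 4 arrays, and Lep on none. The summed signal of the 8 markers, in multiples of the array's 75th percentile, ran from 129 to 253 in linseed mice and from 99.5 to 195 in palm mice, was 129 in linseed mouse 8, and had r = -0.010 with Fasn and -0.38 with Scd1 across mice. Car3, which hepatocytes also express, made up 82.5% to 98.8% of that sum. The other 7 markers summed to 5.73 to 44.3 in linseed mice and to 2.30 to 15.8 in palm mice, with r = -0.36 with Fasn and -0.44 with Scd1. Mean log2 levels were 2.61 in linseed mice and 0.07 in palm mice for Cfd, 1.95 and 0.85 for Plin4, and -4.22 and -5.51 for Adipoq. Pancreas acinar markers summed to 2.14 to 3.61 in linseed mice and to 2.36 to 14.0 in palm mice, the 14.0 being palm mouse 1, which also had the highest Fasn. Their r with Fasn was 0.53 over 18 mice and 0.27 over the 17 without that mouse, and the part of either marker list in the results was not tested. Skeletal muscle markers summed to 29.2 in linseed mouse 6 and to at most 0.76 in the other 17 mice. Without palm mouse 1, 23 pairs of members passed, without linseed mouse 6, 23, and without linseed mouse 8, 20.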

How the data were processed

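RNA from each liver (1 µg, Cy3) was hybridised to 1 Agilent 1-colour array per mouse. Per the file headers, the authors extracted spot intensity values with Agilent Feature Extraction 9.5.3.1, and this processed intensity had its background subtracted on each array without scaling across arrays. Feature Extraction 9.5 and limma are listed in the submitters' processing notes. As an alternative, log2 values were taken from the authors' deposited value table, of which the scaling is unstated. Other, non-numeric columns give spot marks and gene names, per the file headers.

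Values were log2 of the processed intensity minus each array's 75th percentile over non-control probes. Spots marked as non-uniform or outlying were left out in one version and kept in another, and saturated spots were kept. Repeat spots of 1 probe were averaged. A probe needed to be well above background on at least 8 arrays, with values on at least 6 arrays of each diet, and a gene was read from its brightest probe. Diets (from sample titles) were compared over all genes with limma 3.58.1 in R 4.3.3 (linear model with empirical Bayes variances, linseed minus palm, two-sided, Benjamini-Hochberg, 0.05). Spread was tested with limma on absolute deviations from the diet mean. Correlations used residuals from diet means and 100000 two-sided permutations within diets (all orders, exactly, for linseed mice alone), adjusted over the 45 or 24 pairs. The replicate numbers were not taken to pair the mice. Over the 8 shared numbers the deviations of same-numbered mice correlated by -0.22 to 0.47, 5 of them over 0.1. Same-numbered mice shared a slide for numbers 1 to 5 and 7, so these correlations cannot tell pairing from slide.

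On simulated data of 16544 genes the diet test recovered 83% of those shifted by 1 log2 unit and 53% of those shifted by 0.5, and wrongly called 7 of 16144 others. The shifted genes were drawn at random from all genes, whose median within-diet SD was 0.24. These rates therefore do not hold for members of wider spread, such as Fasn (SD 0.98) and Thrsp (0.88), where such shifts are easier to miss. With 18 arrays the number of mice limits the precision. Probe positions (mm9) were read from the files, per the file headers; their place in exons or UTRs is not analysed here. The members, gene lists, tests and named genes were chosen with earlier results of these data known. Named genes are the 10 members, the gene of smallest p in each of 10 pathway lists, 8 genes of feeding and clock, and the 5 genes nearest to Fasn, Scd1 and Srebf1 across mice. One of the feeding genes is not reported here by name.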

Additional observations from a re-analysis of the deposited data

Results flagged for a closer look

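In 3 of the 20 gene and diet groups 1 mouse stood farther from its neighbour than Dixon's 95% limit allows, a limit that chance passes in about 1 group of 20. Fasn was 2.24 in linseed mouse 8, and the next linseed mouse had 0.53. Scd1 was 7.53 in the same mouse, against 6.51 in the next linseed mouse. Scd2 was -1.98 in linseed mouse 5, and the next lowest linseed mouse had -1.04.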

How the results depend on the processing

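Under the settings run, 0 of 8 members passed between the diets with marked spots left out (1621 of all genes had an unadjusted p under 0.05), and 0 of 10 passed the spread test (1030 genes, marked spots kept). The 121 genes called became 68 with normexp, 42 with scaling over unmarked spots, 44 with no filter on dim probes, 200 with slide as a random block, 30 without slide 1, 19 without slides 4 and 5, and 51 to 142 without 1 mouse. The replicate numbers were not taken to pair the mice (2 of 8 correlated best with their own number). As a block they gave 18 genes, or 26 with marked spots kept, and 0 members. With marked spots kept, Scd1 passed as the 1 member called over probes above background on all arrays (-0.84, limma adjusted p = 0.0403), with slide as a random block (-0.82, 0.0395), with trended robust variances (-0.84, 0.0476), without slides 4 and 5 (-1.24, 0.0175) and with the Fasn covariate (-0.76, 0.0150). Of 36 settings beside the first fit, Scd1 passed in 8 and fell short in 28. Among those 28 were normexp, quantile normalization and the authors' deposited values. Without slide 1 its limma adjusted p was 0.272. Without 1 mouse its difference was -1.01 to -0.77 and the count 0 to 1. Signs turned for members that passed nowhere: Srebf1 without slides 4 and 5 (-0.14), Acaca without slide 1 (0.014) and without linseed mouse 1 or 6 (-0.28 to 0.059 over mice left out), Acly as the mean of its probes (0.22, where palm mouse 7 has its dimmer probe alone, against -0.13 with marked spots kept), and Thrsp without linseed mouse 2 (-0.47 to 0.014 over mice left out). For Me1 it turned with quantile normalization (-0.023), scaling over probes above background on all arrays (-0.017) or over unmarked spots (-0.049), slide as a fixed (-0.070) or random block (-0.0048), the replicate block (-0.15), without slides 4 and 5 (-0.18) and without 1 mouse (-0.058 to 0.10). Of 45 member pairs, 24 passed, against 7 in linseed mice alone, 12 in palm mice alone, 10 without the 3 mice of highest Fasn and 20 to 23 without linseed mouse 6, linseed mouse 8 or palm mouse 1, the mice left out in turn here. Of 24 pairs with feeding and clock genes, 3 passed, against 5 with diet and slide means removed, 1 of 12 with marked spots left out, 0 in linseed mice, 1 in palm mice, 0 without the 3 of highest Fasn, and 1 to 3 without the same 3 mice in turn (1 without palm mouse 1). With marked spots left out, Acaca was read from probe A_55_P2084706. Dropping slide 1 or any of linseed mice 1 to 6 left that probe under 6 linseed values. Acaca was then read from a dimmer probe, so its sign there does not describe the mice left out alone. Linseed or palm mice alone, or fewer mice, leave fewer samples, and, Acly and Acaca aside, the cause of the other changes was not tested. The Fasn covariate and the mice left out of the correlations were chosen after the data were seen. Of 16544 genes tested, dim ones lie nearest to background, and saturation or marked spots limit the bright ones.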
